A study of Mus musculus with 20 samples.

Results

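Cybrd1, Hmox1, Ftl1, Fth1, Tfrc, Trf, Slc40a1, Slc11a1, Slc11a2 and Cp encode proteins that carry, import, reduce, store, oxidise or export iron, or release it from heme. These 10 genes were chosen by their role in iron and heme handling, with earlier results of these data known, and were found among the 46078 genes of the count tables by matching symbols to Ensembl identifiers of the GRCm38 mouse genome. All 10 passed the filter on low counts in each comparison. RNA sequencing covered brain tissue of aged (18 months) male wild-type C57BL/6J mice, collected 7 weeks after DH stroke, in which the distal middle cerebral artery is occluded and the animal then breathes air low in oxygen. All mice had the stroke. From 1 week after it they received injections of PBS vehicle or of hydroxypropyl-β-cyclodextrin (HPBCD), a ring of glucose units that can carry cholesterol, at 4 g/kg subcutaneously, 3 times a week over 6 weeks. The peri-infarct region was taken after removal of the infarct itself, along with the corresponding contralateral tissue of the same animal, which gave 4 groups of 5 libraries. The contralateral hemisphere of a stroke animal served as the reference, and no tissue without stroke was analysed here.

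Iron travels in the blood bound to transferrin (Trf), enters cells through the transferrin receptor (Tfrc) and leaves the endosome through the metal transporter Slc11a2. Inside the cell it is held in ferritin, a shell built from heavy (Fth1) and light (Ftl1) chains, and it leaves through ferroportin (Slc40a1) with the help of the copper ferroxidase ceruloplasmin (Cp). In brain, oligodendrocytes are rich in iron and ferritin and make transferrin, while microglia and macrophages take up iron and heme from dying cells and break heme down with heme oxygenase (Hmox1). Iron regulatory proteins act on several of these transcripts after transcription, so RNA levels are not protein levels.

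Total gene counts per library were 14445021 to 22171627, so 3 counts in a library equal 0.135 to 0.208 CPM (counts per 1000000, with library sizes scaled by TMM factors). HPBCD contralateral replicate 4 stood apart in having 9.50% of its read pairs outside any gene and 8.03% ambiguous between genes, where the medians over libraries were 5.15% and 4.09%. A list of 33 genes with a stated direction under HPBCD in aged peri-infarct tissue was set against the treatment labels. Of these, 32 were tested between treatments in peri-infarct tissue, all 32 had a fold change opposite to the listed direction, and edgeR called 18 of them. The list comes from the study itself, which picked it from these same samples, so it is not independent evidence. Whether the labels of the treatments are exchanged cannot be told from these files, and no sample was moved. An exchange would turn the sign of each treatment difference and interaction and swap the regional results of both treatments. Below, vehicle and HPBCD mean the libraries so labelled, and each treatment direction holds for the labels as deposited.

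Marker genes of cell types were followed beside the iron genes, each list as its summed CPM per library, and every marker of the 12 lists had counts in every group. Neuron markers, which check the tissue label, summed to 7956 to 9757 in vehicle contralateral, 4718 to 6713 in vehicle peri-infarct, 9697 to 10523 in HPBCD contralateral and 2278 to 5058 in HPBCD peri-infarct libraries. Homeostatic microglia markers ran the other way, at 297 to 332, 462 to 1106, 273 to 337 and 714 to 1248 in the same order. Mature oligodendrocyte markers summed to 4529 to 11759.5 in vehicle contralateral, 6096 to 14721 in vehicle peri-infarct, 5568 to 7016 in HPBCD contralateral and 12611 to 19356 in HPBCD peri-infarct libraries. Striatal markers, which mark tissue below the cortex, reached 208 to 1084 and 323 to 1031 in the peri-infarct groups, against 133 to 163 in HPBCD contralateral libraries. In vehicle contralateral libraries they were 117 to 183 in 4 libraries and 1836 in replicate 1. HPBCD animal 3 had the highest choroid plexus markers, at 634 in its contralateral and 679 in its peri-infarct library. These markers summed to 5.93 to 76 in vehicle and 27.1 to 679 in HPBCD peri-infarct libraries. Ependyma markers summed to 18.1 to 46.3 and 68.7 to 135 there, without overlap. Between treatments in peri-infarct tissue edgeR called 3 of 5 choroid plexus and 3 of 4 ependyma markers higher in HPBCD, beside 12.4% of all genes. In the interaction it called 0 of 5 and 4 of 4, beside 5.03%. In bulk tissue, fewer cells of a type and less RNA per cell cannot be told apart, and the part of the cell mixture in the differences below was not tested.

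Iron regulatory proteins bind the iron-responsive element, a short RNA hairpin. In the 5′ UTR of a transcript it lets them block translation when iron is low, and in the 3′ UTR it lets them protect the transcript from decay. The transcripts of 4 of the 10 genes held hairpins of this shape, which are shown because they split the genes by position. The search used windows of 27 bases of GENCODE M21 transcripts (GRCm38), read as DNA on the transcript strand, made of 5 bases, an unpaired C, 5 bases, a loop of CAGTG followed by a base other than G, and 10 bases that pair with both arms (all 5 upper pairs and at least 3 of 5 lower pairs, G with T allowed). Such a window was present in 66 of 21500 genes with a coding transcript (0.307%). It lay in the 5′ UTR of Fth1 (chr19:9982733-9982759, plus strand), Ftl1 (chr7:45459780-45459806, minus strand) and Slc40a1 (chr1:45925466-45925492, minus strand). The 3′ UTR of Tfrc held 4 windows on the plus strand (chr16:32631220-32631246, chr16:32631599-32631625, chr16:32631664-32631690 and chr16:32631711-32631737). The sequences follow 5′ to 3′, with the loop in capitals.
Fth1, 5′ UTR: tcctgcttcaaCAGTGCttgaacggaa
Ftl1, 5′ UTR: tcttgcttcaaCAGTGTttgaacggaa
Slc40a1, 5′ UTR: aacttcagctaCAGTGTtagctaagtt
Tfrc, 3′ UTR, window 1: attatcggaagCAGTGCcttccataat
Tfrc, 3′ UTR, window 2: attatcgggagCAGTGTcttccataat
Tfrc, 3′ UTR, window 3: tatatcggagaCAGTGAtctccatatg
Tfrc, 3′ UTR, window 4: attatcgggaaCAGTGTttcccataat
The ferritin windows share 25 of 27 bases. The other 6 genes held no such window, which says only that these letters were not found in their annotated transcripts. An element that departs from this pattern would be missed, here and in the wider list. Among the 64 other iron and heme genes described below, Alas2, the erythroid enzyme that starts heme synthesis, was the single gene with a match.

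Counts were compared per length to order the genes by level, as CPM per kb of exon not shared with another gene in the count tables. In vehicle contralateral tissue Fth1 led with 802 ± 171 CPM per kb (SD, n = 5), followed by Ftl1 with 55.9 ± 5.48 and Tfrc with 15.1 ± 1.84. Slc11a2 came next with 5.31 ± 0.54 CPM per kb, and Trf, Hmox1 and Cp had 2.67 ± 1.07, 2.04 ± 0.286 and 1.54 ± 0.47. Slc40a1 and Slc11a1 were lower at 1.01 ± 0.149 and 0.842 ± 0.187 CPM per kb, and Cybrd1 was lowest at 0.224 ± 0.0496. The libraries of Trf and Hmox1 overlapped, as did those of Hmox1 and Cp and those of Slc40a1 and Slc11a1, and each other neighbouring pair was separate. In HPBCD peri-infarct tissue the order changed below the ferritins: Cp, Hmox1, Trf, Tfrc and Slc11a1 lay at 9.85 ± 3.74, 9.79 ± 2.89, 9.47 ± 4.74, 9.38 ± 2.21 and 7.92 ± 2.5 CPM per kb, with overlapping libraries between each pair of neighbours. Slc40a1 was last there at 1.23 ± 0.404 CPM per kb, below Cybrd1 at 2.72 ± 0.279.

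**Figure D1:**
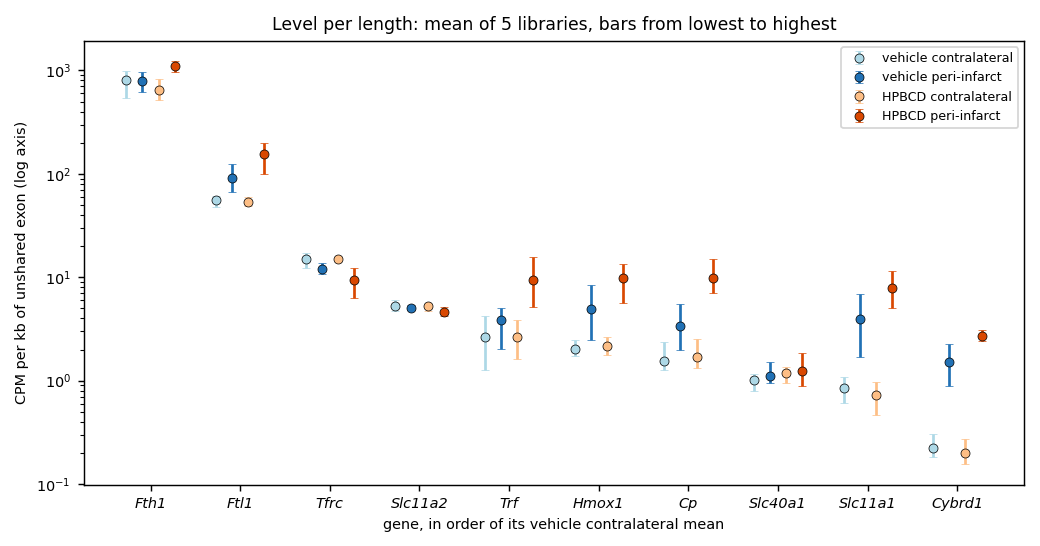
Level of each gene as CPM per kb of unshared exon (log axis), as the mean of 5 libraries with bars from the lowest to the highest library, for the 4 groups. Fth1 leads in each group (means of 648 to 1100), while Cybrd1 spans 0.198 to 2.72 and Slc40a1 stays between 1.01 and 1.23.

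Counting limits bear on 2 of these levels. Trf shares 2108 of its 3320 exon bases with Gm20425, a readthrough gene on the same strand (chromosome 9, 103190208 to 103230307) that held a single count over all 20 libraries. Of the 75-base windows of Trf transcripts, 56.0% also occurred in a transcript of another gene, and Trf counts were 28 to 347 per library. Its level per kb used the 1212 unshared bases. Read pairs ambiguous between overlapping genes were not counted. Pairs over the shared bases are thus missing from the Trf counts, and its level and place in the order are uncertain. For Ftl1, 51.3% of 75-base windows occurred in another gene, among them the light chain copies Ftl1-ps1, Ftl1-ps2 and Ftl2-ps, and the share for Fth1 was 0.882%. Read pairs placed equally well in several genes were not counted, so the Ftl1 level and the gap between the ferritin chains are uncertain. Ftl2-ps itself read 6.74 ± 2.33 CPM in vehicle contralateral and 20.6 ± 4.88 CPM in HPBCD peri-infarct tissue over 5 libraries (SD). For the other 8 genes the share was at most 2.85%, in Slc11a2, whose exons meet Gm5475 on the opposite strand over 402 bases.

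The first comparison asked which iron genes differed between the tissue beside the infarct and the opposite hemisphere in mice given vehicle. Cybrd1, Slc11a1, Hmox1, Cp and Ftl1 were higher in the peri-infarct region and Tfrc was lower, while Trf, Fth1, Slc40a1 and Slc11a2 did not pass the test. The test was the quasi-likelihood F test of edgeR on raw counts with adjustment over all genes, and a gene is called where its adjusted p is under 0.05. Calls of these 10 genes describe them and are no test of the list. Of 15801 genes tested, 10.5% were called higher and 9.70% lower, so 5 of 10 called higher stands beside 10.5% and 1 of 10 called lower beside 9.70%. The median log2 fold change was 0.600 over the 10 genes and 0.015 over all genes tested. The libraries of both groups did not overlap for 4 of the 10 genes, where 13.4% of all genes did not overlap.

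The same comparison in HPBCD mice gave 7 genes called higher, with Trf and Fth1 added to the 5 above, and 1 called lower, Tfrc. There, 30.3% of the 16047 genes tested were called higher and 24.3% lower, and 42.5% had groups that did not overlap, which was the case for 8 of the 10 genes. The median log2 fold change was 1.674 over the 10 genes and 0.032 over all genes. Between treatments within peri-infarct tissue, Cp, Trf, Hmox1, Cybrd1, Ftl1 and Fth1 were called higher in HPBCD and none of the 10 lower, beside 12.4% and 9.00% of 16224 genes. Groups did not overlap for 3 of the 10 genes and for 13.4% of all genes. In contralateral tissue edgeR called none of the 10 genes and 0.00% of the 15469 genes tested, and 0 of the 10 had an unadjusted p under 0.05, where 1224 of the 15469 did. There the groups overlapped for each of the 10, while 1.51% of all genes had groups that did not overlap. DESeq2 and limma voom also called none of the 10 in contralateral tissue, with 1 gene each at an unadjusted p under 0.05. Over all genes DESeq2 called 51 there and limma voom 0. The interaction, which tests whether the regional difference itself differed between treatments, was called positive for Fth1, Ftl1, Cp and Cybrd1 and negative for none, beside 5.03% of 16758 genes called positive and 4.38% called negative.

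**Figure D2:**
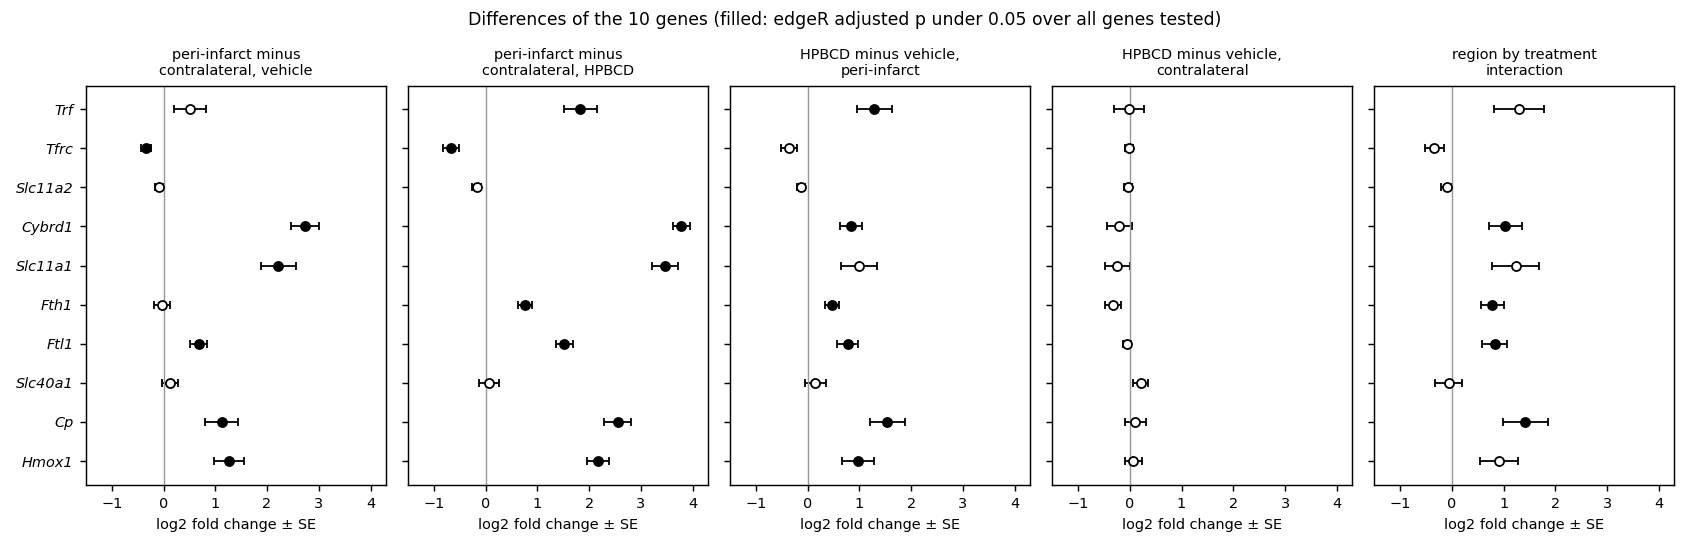
Log2 fold change with its SE (horizontal axis) of each of the 10 genes in the 5 comparisons, with filled points for an edgeR adjusted p under 0.05. Cybrd1 and Slc11a1 have the largest regional differences among the 10 (2.74 and 2.22 in vehicle, 3.78 and 3.46 in HPBCD), Tfrc is the one called lower, and the contralateral panel runs from -0.32 to 0.21.

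Fth1, the ferritin heavy chain, which oxidises iron as it enters the shell (ENSMUSG00000024661, chromosome 19, 9980598 to 9985098, plus strand), was the most abundant of the 10 genes. Fth1 read 2904, 2579, 3453, 1885 and 3093 CPM in vehicle contralateral and 2731, 2127, 2968, 2521 and 3363 CPM in vehicle peri-infarct libraries, in the order of replicates 1 to 5. In HPBCD mice it read 2863, 1803, 2229.5, 2079 and 2259 CPM in contralateral and 3643, 3359, 3621, 4292 and 4156 CPM in peri-infarct libraries. The vehicle groups overlapped and 2 of 5 animals were higher on the peri-infarct side, whereas in HPBCD mice each peri-infarct library was above each contralateral one. The regional log2 fold change was -0.03 ± 0.16 (SE, adjusted p = 0.905 by edgeR) in vehicle and 0.76 ± 0.13 (SE, adjusted p = 0.000391 by edgeR) in HPBCD. The treatment difference within peri-infarct tissue was 0.47 ± 0.14 (SE, adjusted p = 0.0411 by edgeR), in groups that overlapped by the vehicle library at 3363 CPM, and the interaction was 0.78 ± 0.22 (SE, adjusted p = 0.0319 by edgeR). The treatment call of Fth1 was lost on leaving out any of 7 of the 10 libraries (adjusted p 0.0502 to 0.0958 by edgeR) and with no filter (edgeR adjusted p = 0.0552), and the interaction call on leaving out any of 9 of the 20 (adjusted p 0.0511 to 0.0656 by edgeR). In contralateral tissue HPBCD minus vehicle was -0.32 ± 0.15 (SE, adjusted p = 0.634 by edgeR), the largest treatment difference of the 10 genes on that side.

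Within groups, Fth1 varied with oligodendrocyte markers. Its within-group deviations of log2 CPM and those of the summed mature oligodendrocyte markers had a Pearson r of 0.87 over 20 libraries, which share their library totals and, by animal, their source. In vehicle contralateral tissue, replicate 4 had both the lowest Fth1 (1885 CPM) and the lowest summed markers (4529), and replicate 3 had both the highest Fth1 (3453 CPM) and the highest markers (11759.5). All 8 oligodendrocyte markers were called higher in the peri-infarct region of HPBCD mice and none in vehicle mice. Among 11784 other genes with a mean of at least 5 CPM, the patterns most like that of Fth1 were Plekhb1 (r = 0.958 over 20 libraries, 0.91 within groups) and the myelin gene Mbp (r = 0.953, 0.891 within groups).

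Ftl1, the ferritin light chain, which helps the iron core form (ENSMUSG00000050708, chromosome 7, 45457944 to 45459884, minus strand), differed from its partner. Ftl1 read 71.9, 72.6, 75.5, 59 and 64.7 CPM in vehicle contralateral and 94.8, 82.3, 153, 130.1 and 97.1 CPM in vehicle peri-infarct libraries. It read 73.4, 59.7, 68.3, 64.9 and 65.8 CPM in HPBCD contralateral and 160.3, 121, 247, 243 and 186 CPM in HPBCD peri-infarct libraries. Both pairs of regions were separate, and the peri-infarct side was higher in 5 of 5 animals of each treatment. Peri-infarct minus contralateral log2 was 0.68 ± 0.16 (SE, adjusted p = 0.0117 by edgeR) in vehicle and 1.52 ± 0.16 (SE, adjusted p = 8.61e-06 by edgeR) in HPBCD. Between treatments the peri-infarct groups overlapped, with a log2 fold change of 0.77 ± 0.21 (SE, adjusted p = 0.03 by edgeR), and the interaction was 0.83 ± 0.24 (SE, adjusted p = 0.0388 by edgeR). For Ftl1 the treatment call was lost without any of 6 of the 10 libraries (adjusted p 0.0527 to 0.0787 by edgeR), and the interaction call without any of 11 of the 20 (adjusted p 0.0573 to 0.0784 by edgeR). The patterns most like Ftl1 were those of the lysosomal protease Ctsl (r = 0.986, 0.941 within groups) and the lipid droplet gene Plin2 (r = 0.986, 0.928 within groups). Its within-group r was 0.67 with microglia markers, 0.36 with oligodendrocyte markers and -0.81 with neuron markers.

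The ratio of Fth1 to Ftl1 CPM was 40.3 ± 6.67 in vehicle contralateral and 25.6 ± 6.49 in vehicle peri-infarct libraries, and 33.6 ± 3.35 and 21 ± 5.01 in the HPBCD groups (SD). HPBCD regions did not overlap, at 30.2 to 39 against 14.7 to 27.7, while the vehicle regions overlapped between 32 and 34.7. The ratio is one of counts, not of molecules, and excludes Ftl1 reads that also fit its copies.

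**Figure D3:**
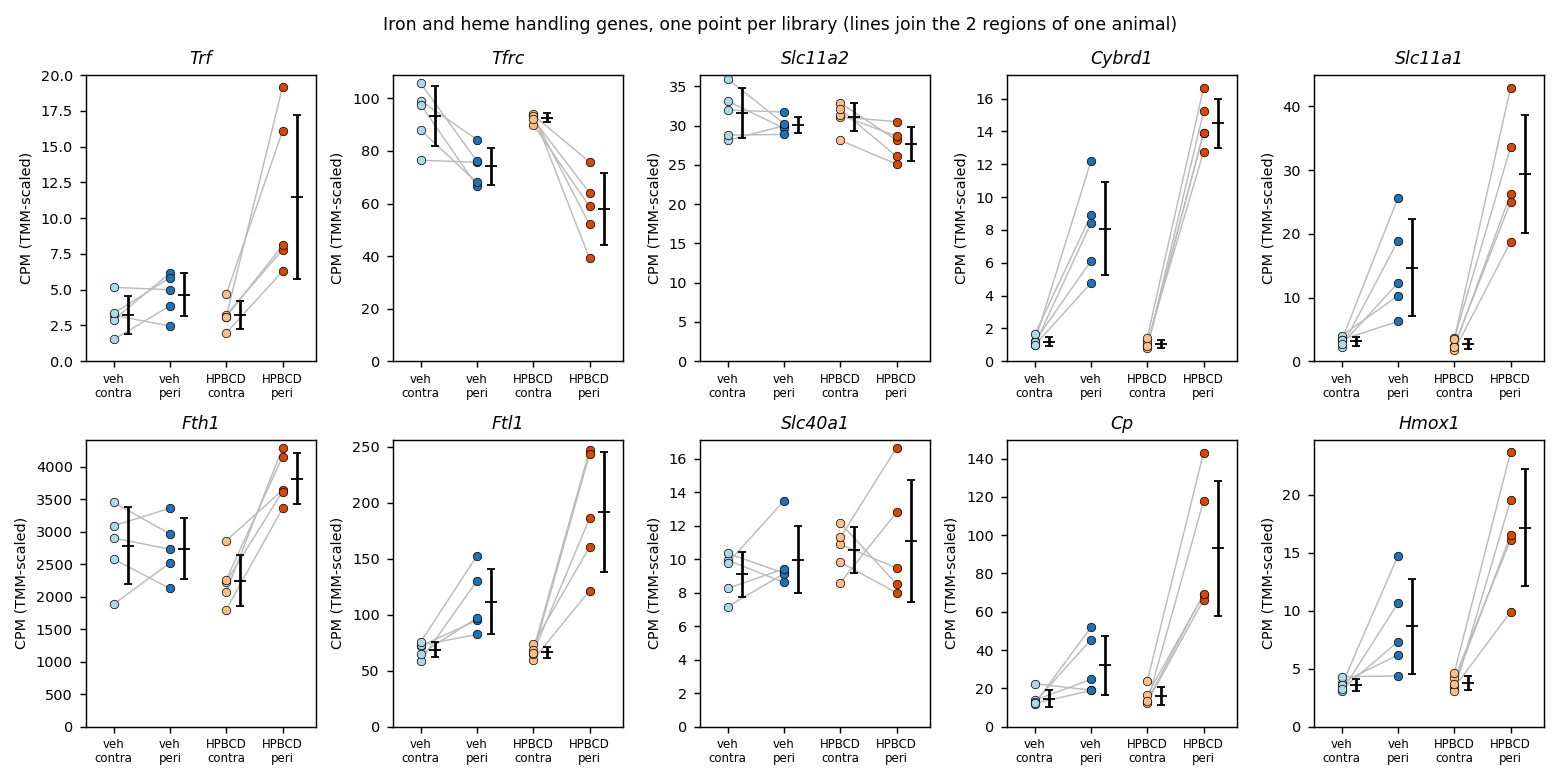
CPM of each of the 10 genes (vertical axis, linear, from 0) in 20 libraries by group, with grey lines joining the regions of an animal and bars at the mean ± SD of 5 libraries. Cybrd1 is at 0.981 to 1.63 and 0.827 to 1.45 in the contralateral groups and at 4.77 to 12.2 and 12.8 to 16.7 in the peri-infarct groups, while Slc40a1 overlaps across all 4 groups.

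Among the uptake genes, Trf (ENSMUSG00000032554, chromosome 9, 103204001 to 103230444, minus strand) read 5.17, 3.21, 2.9, 1.52 and 3.35 CPM in vehicle contralateral and 5.0, 2.46, 6.16, 3.86 and 5.84 CPM in vehicle peri-infarct libraries. In HPBCD mice it read 3.24, 1.97, 3.1, 3.12 and 4.68 CPM on the contralateral and 7.78, 6.29, 8.09, 19.2 and 16.1 CPM on the peri-infarct side. Vehicle regions overlapped, and HPBCD peri-infarct libraries were above every library of the other 3 groups, with replicates 4 and 5 highest. The log2 fold change between regions was 0.51 ± 0.31 (SE, adjusted p = 0.267 by edgeR) in vehicle and 1.83 ± 0.32 (SE, adjusted p = 0.000403 by edgeR) in HPBCD, and between treatments in peri-infarct tissue 1.29 ± 0.34 (SE, adjusted p = 0.0269 by edgeR). That treatment call of Trf was lost without any of 6 of the 10 libraries (adjusted p 0.0503 to 0.0608 by edgeR). The interaction of 1.30 (SE 0.48) did not pass the test (edgeR adjusted p = 0.0847), although it did with DESeq2 (adjusted p = 0.0464) and limma voom (adjusted p = 0.0336). Oligodendrocyte markers moved with Trf, with a within-group r of 0.75 over 20 libraries, and the same HPBCD replicates 4 and 5 had the highest marker sums (19356 and 17745). Patterns most like Trf were those of S100b (r = 0.954, 0.876 within groups) and Adh5 (r = 0.948, 0.873 within groups). Relative to those markers, Trf per 10000 was 3.72 ± 1.15 in vehicle contralateral, 4.84 ± 0.771 in vehicle peri-infarct, 4.95 ± 1.46 in HPBCD contralateral and 7.06 ± 2.25 in HPBCD peri-infarct libraries (SD), with overlap between the groups of each comparison.

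Tfrc, the receptor that takes up transferrin in neurons and brain endothelium (ENSMUSG00000022797, chromosome 16, 32608920 to 32632794, plus strand), was the one gene of the 10 called lower beside the infarct. Tfrc read 76.5, 99.1, 106, 97.6 and 88 CPM in vehicle contralateral and 75.7, 84.3, 76.1, 66.7 and 68 CPM in vehicle peri-infarct libraries. It read 90.0, 93.7, 94.1, 93.2 and 92.1 CPM in HPBCD contralateral and 58.9, 75.8, 39.1, 52.1 and 64.1 CPM in HPBCD peri-infarct libraries. In all 10 animals the peri-infarct library was the lower of the pair, and the regions were separate in HPBCD mice alone. On the log2 scale the regional difference was -0.34 ± 0.10 (SE, adjusted p = 0.03 by edgeR) in vehicle and -0.67 ± 0.15 (SE, adjusted p = 0.00197 by edgeR) in HPBCD. The vehicle call was lost when any of 7 of the 10 libraries was left out (adjusted p 0.0501 to 0.0791), among them vehicle contralateral replicate 3 (log2 fold change -0.282), and the log2 fold change stayed at -0.40 to -0.28 over all alternatives. Treatments did not differ by the test in peri-infarct tissue, at -0.36 ± 0.15 (SE, adjusted p = 0.11 by edgeR), nor in the interaction, at -0.34 ± 0.18 (SE, adjusted p = 0.204 by edgeR). The treatment difference was called by limma voom (-0.418, adjusted p = 0.0436), in the edgeR fit of all 4 groups (-0.355, adjusted p = 0.0386) and by edgeR without HPBCD peri-infarct replicate 2 (-0.485, adjusted p = 0.022). Relative to the summed neuron markers, Tfrc was 1.03 ± 0.104% in vehicle contralateral, 1.26 ± 0.212% in vehicle peri-infarct, 0.91 ± 0.0413% in HPBCD contralateral and 1.6 ± 0.409% in HPBCD peri-infarct libraries (SD), so it was lower by a smaller share than those markers. Relative to endothelium markers the ratio was 0.356 ± 0.0976, 0.328 ± 0.0502, 0.339 ± 0.0239 and 0.227 ± 0.0671 in the same order. The patterns most like Tfrc were those of Mpp3 (r = 0.934, 0.769 within groups) and Dgkz (r = 0.928, 0.784 within groups).

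Slc11a2, the divalent metal transporter that carries iron out of the endosome (ENSMUSG00000023030, chromosome 15, 100387898 to 100425072, minus strand), was not called by edgeR in any of the 5 comparisons. Slc11a2 lay at 28.1 to 36 CPM in vehicle contralateral, 28.9 to 31.7 in vehicle peri-infarct, 28.1 to 32.9 in HPBCD contralateral and 25.1 to 30.5 in HPBCD peri-infarct libraries, and the groups overlapped in each comparison. Its log2 fold change was -0.08 ± 0.08 (SE, adjusted p = 0.488 by edgeR) between regions in vehicle and -0.17 ± 0.09 (SE, adjusted p = 0.125 by edgeR) in HPBCD, where 0 of 5 animals were higher on the peri-infarct side. DESeq2 and limma voom called the HPBCD difference, at -0.197 and -0.198 (adjusted p = 0.0469 and 0.0388), as did edgeR without HPBCD peri-infarct replicate 2 (-0.218, adjusted p = 0.036). The highest r of another gene with Slc11a2 was 0.836, for Slc2a6, followed by 0.813 for Lrrfip1, lower than for any other of the 10 genes but Slc40a1.

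Cybrd1, duodenal cytochrome b, a membrane reductase of ferric iron best known from gut absorption (ENSMUSG00000027015, chromosome 2, 71117923 to 71142926, plus strand), had the largest regional difference of the 10. Cybrd1 read 1.21, 0.981, 1.18, 1.63 and 0.984 CPM in vehicle contralateral and 6.12, 4.77, 12.2, 8.9 and 8.42 CPM in vehicle peri-infarct libraries. It read 0.948, 1.16, 0.827, 1.45 and 0.902 CPM in HPBCD contralateral and 13.9, 12.8, 15.2, 16.7 and 13.9 CPM in HPBCD peri-infarct libraries. The contralateral libraries held 12 to 30 counts each, and all 10 peri-infarct libraries were above all 10 contralateral ones. HPBCD peri-infarct libraries were also separate from the vehicle ones, narrowly, at 12.8 CPM for the lowest of the first and 12.2 CPM for the highest of the second. Regions differed by a log2 of 2.74 ± 0.27 (SE, adjusted p = 0.00115 by edgeR) in vehicle, a 6.66-fold difference, and 3.78 ± 0.16 (SE, adjusted p = 3.56e-08 by edgeR) in HPBCD, a 13.7-fold difference. The treatment difference in peri-infarct tissue was 0.84 ± 0.21 (SE, adjusted p = 0.023 by edgeR), not called without HPBCD peri-infarct replicate 3 or without replicate 1 of the vehicle peri-infarct group (adjusted p 0.0539 to 0.0593 by edgeR), and the interaction 1.03 ± 0.32 (SE, adjusted p = 0.047 by edgeR). Leaving out any of 16 of the 20 libraries ended the interaction call of Cybrd1 (adjusted p 0.0507 to 0.0863 by edgeR), as did the fit with no filter (edgeR adjusted p = 0.0675). The patterns most like Cybrd1 were those of Cd44, a receptor for hyaluronan (r = 0.985, 0.676 within groups), and Dock2 of blood and immune cells (r = 0.984, 0.805 within groups). Its within-group r was 0.74 with microglia and 0.67 with astrocyte markers.

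Slc11a1, a metal transporter of the phagosome in macrophages and microglia, of which C57BL/6 mice carry a variant known to impair its function (ENSMUSG00000026177, chromosome 1, 74375195 to 74386062, plus strand), came second in size. Slc11a1 read 4.01, 3.38, 3.32, 2.23 and 2.66 CPM in vehicle contralateral and 10.3, 6.25, 25.7, 18.9 and 12.3 CPM in vehicle peri-infarct libraries. It read 2.45, 1.71, 3.58, 3.5 and 2.2 CPM in HPBCD contralateral and 25, 18.8, 33.6, 43 and 26.3 CPM in HPBCD peri-infarct libraries. Regions were separate in both treatments, and the peri-infarct groups overlapped between treatments. Its regional log2 difference was 2.22 ± 0.34 (SE, adjusted p = 0.00263 by edgeR) in vehicle and 3.46 ± 0.25 (SE, adjusted p = 7.17e-07 by edgeR) in HPBCD. The treatment difference in peri-infarct tissue did not pass the test, at 0.99 ± 0.34 (SE, adjusted p = 0.0556 by edgeR), with an adjusted p of 0.0105 to 0.132 over the alternatives and a call by DESeq2 and limma voom. The interaction, 1.23 ± 0.45 (SE, adjusted p = 0.0817 by edgeR), passed with the replicate block of animals (log2 1.34, edgeR adjusted p = 0.0431), with DESeq2 (1.22, adjusted p = 0.0406) and with limma voom (1.35, adjusted p = 0.0433). It also passed without vehicle peri-infarct replicate 3 (edgeR adjusted p = 0.0198) or replicate 2 of the HPBCD peri-infarct group (edgeR adjusted p = 0.0378). Slc11a1 had the closest likeness of all: r = 0.996 over 20 libraries and 0.968 within groups with Cd68, the lysosomal glycoprotein of phagocytes, and r = 0.991 with Ctsh (0.924 within groups). As a share of summed homeostatic microglia markers it was 1.0 ± 0.194% in vehicle contralateral, 2.01 ± 0.537% in vehicle peri-infarct, 0.90 ± 0.274% in HPBCD contralateral and 3.24 ± 0.75% in HPBCD peri-infarct libraries (SD). These shares did not overlap between regions in either treatment, and overlapped between the treatments in peri-infarct tissue.

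Of the export genes, Slc40a1 encodes ferroportin, the exporter of iron (ENSMUSG00000025993, chromosome 1, 45908068 to 45926523, minus strand). Slc40a1 read 9.95, 10.4, 9.78, 7.17 and 8.27 CPM in vehicle contralateral and 8.62, 9.18, 13.5, 9.14 and 9.43 CPM in vehicle peri-infarct libraries. It read 9.83, 10.9, 11.3, 8.59 and 12.2 CPM in HPBCD contralateral and 7.99, 9.48, 16.7, 12.8 and 8.52 CPM in HPBCD peri-infarct libraries. The groups overlapped in each comparison, and 1 peri-infarct library of each treatment, replicate 3 in both, was the highest of its group. Its log2 fold change was 0.12 ± 0.15 (SE, adjusted p = 0.623 by edgeR) in vehicle and 0.07 ± 0.19 (SE, adjusted p = 0.79 by edgeR) in HPBCD between regions, and 0.15 ± 0.21 (SE, adjusted p = 0.632 by edgeR) between treatments in peri-infarct tissue. The vehicle value was 0.000487 without vehicle peri-infarct replicate 3, the highest library of that group. Without HPBCD peri-infarct replicate 3 the sign turned, to -0.136 between regions in HPBCD and -0.0473 between treatments. The interaction was -0.06 ± 0.26 (SE, adjusted p = 0.9 by edgeR). Likeness was highest with Lbr (r = 0.767) and Dgka (r = 0.763), the lowest values among the 10 genes.

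Cp, the ferroxidase that loads iron onto transferrin and is anchored on astrocytes in brain (ENSMUSG00000003617, chromosome 3, 19957054 to 20009145, plus strand), had the largest treatment difference of the 10 in peri-infarct tissue. Cp read 13.7, 22.4, 12.8, 11.9 and 12.1 CPM in vehicle contralateral and 24.6, 19, 45.4, 52 and 18.9 CPM in vehicle peri-infarct libraries. It read 16.6, 12.9, 23.9, 12.5 and 13.4 CPM in HPBCD contralateral and 68.9, 66.2, 143, 118 and 69.4 CPM in HPBCD peri-infarct libraries. The vehicle regions overlapped and 4 of 5 animals were higher on the peri-infarct side, while HPBCD peri-infarct libraries were above every library of the other groups. The log2 fold change by region was 1.12 ± 0.31 (SE, adjusted p = 0.0261 by edgeR) in vehicle and 2.55 ± 0.26 (SE, adjusted p = 4.87e-06 by edgeR) in HPBCD, or 2.17-fold and 5.86-fold. With the replicate block the vehicle difference was 1.03 and no longer called (edgeR adjusted p = 0.0574), and it was not called without vehicle peri-infarct replicate 3 or 4 or vehicle contralateral replicate 3 or 5 (adjusted p 0.0573 to 0.0675). The treatment difference in peri-infarct tissue was 1.54 ± 0.34 (SE, adjusted p = 0.0164 by edgeR). It was called in all 17 alternatives, at log2 fold changes of 1.33 to 1.78 and adjusted p-values of 0.000133 to 0.0475. The interaction was 1.42 ± 0.43 (SE, adjusted p = 0.0421 by edgeR), and its call was lost on leaving out any of 12 of the 20 libraries (adjusted p 0.0576 to 0.0862 by edgeR).

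HPBCD animal 3, with the highest choroid plexus markers, also had the highest Cp on both sides (23.9 and 143 CPM). Without both of its libraries, an alternative chosen after seeing the data, the treatment difference was 1.33 (edgeR adjusted p = 0.0475) and the regional difference in HPBCD 2.53 (also called). The patterns most like Cp were those of Fn1, fibronectin (r = 0.99, 0.955 within groups), and Myof (r = 0.984, 0.903 within groups). Markers of fibroblasts and meninges summed to 107 to 361 CPM in vehicle and 531 to 1211 CPM in HPBCD peri-infarct libraries, with 6 of 6 called higher in HPBCD, and their within-group r with Cp was 0.77, against 0.75 for markers of perivascular and border macrophages, 0.54 for astrocyte markers and 0.38 for choroid plexus markers. The macrophage markers summed to 5.17 to 13.9 CPM in vehicle and 17.7 to 42.1 CPM in HPBCD peri-infarct libraries, with 5 of 6 called higher in HPBCD. The part of these cells in the Cp difference was not tested.

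Hmox1, the inducible heme oxygenase, which opens the heme ring and frees its iron (ENSMUSG00000005413, chromosome 8, 75093621 to 75100589, plus strand), stood for heme breakdown. Hmox1 read 3.79, 4.3, 3.55, 3.04 and 3.2 CPM in vehicle contralateral and 6.17, 4.36, 14.7, 10.6 and 7.32 CPM in vehicle peri-infarct libraries. It read 4.14, 3.38, 3.1, 4.64 and 3.66 CPM in HPBCD contralateral and 16.1, 9.88, 19.5, 23.7 and 16.5 CPM in HPBCD peri-infarct libraries. Regions were separate in both treatments, in vehicle only just, since peri-infarct replicate 2 (4.36 CPM) was next to contralateral replicate 2 of the same animal (4.3 CPM). By region the log2 fold change was 1.26 ± 0.29 (SE, adjusted p = 0.0123 by edgeR) in vehicle and 2.17 ± 0.21 (SE, adjusted p = 3.12e-06 by edgeR) in HPBCD. The treatment difference in peri-infarct tissue, 0.98 ± 0.31 (SE, adjusted p = 0.0444 by edgeR), was lost on leaving out any of 8 of the 10 libraries (adjusted p 0.0557 to 0.104 by edgeR), as without HPBCD peri-infarct replicate 4 (log2 0.842), and the interaction of 0.91 ± 0.37 (SE, adjusted p = 0.116 by edgeR) was not called. The Hmox1 interaction was called by limma voom (1.1, adjusted p = 0.0259), and by edgeR without vehicle peri-infarct replicate 3 (adjusted p = 0.0231) or HPBCD peri-infarct replicate 2 (adjusted p = 0.0393). As a share of summed homeostatic microglia markers Hmox1 was 1.16 ± 0.171% in vehicle contralateral and 1.2 ± 0.241% in vehicle peri-infarct libraries, and 1.26 ± 0.178% and 1.89 ± 0.438% in HPBCD (SD). These shares overlapped between regions in both treatments. Erythroid markers, a sign of blood, summed to 4.07 to 15 CPM in vehicle contralateral, 5.46 to 10.9 in vehicle peri-infarct, 1.69 to 17.6 in HPBCD contralateral and 9.34 to 83.6 in HPBCD peri-infarct libraries, with a within-group r of 0.12 with Hmox1, against 0.83 for microglia markers. Over all 20 libraries these r were 0.53 and 0.95. Between treatments in peri-infarct tissue edgeR called 3 of 3 tested erythroid and 0 of 8 microglia markers higher, beside 12.4% of all genes. Between regions 8 of 8 microglia markers were called higher in both treatments, beside 10.5% and 30.3% of all genes. Of erythroid markers, 0 of 2 tested were called in vehicle and 2 of 4 in HPBCD. The part of blood or microglia in the Hmox1 differences was not tested. The patterns most like Hmox1 were those of Arpc1b (r = 0.988, 0.927 within groups) and the lysosomal enzyme Hexa (r = 0.987, 0.954 within groups).

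**Figure D4:**
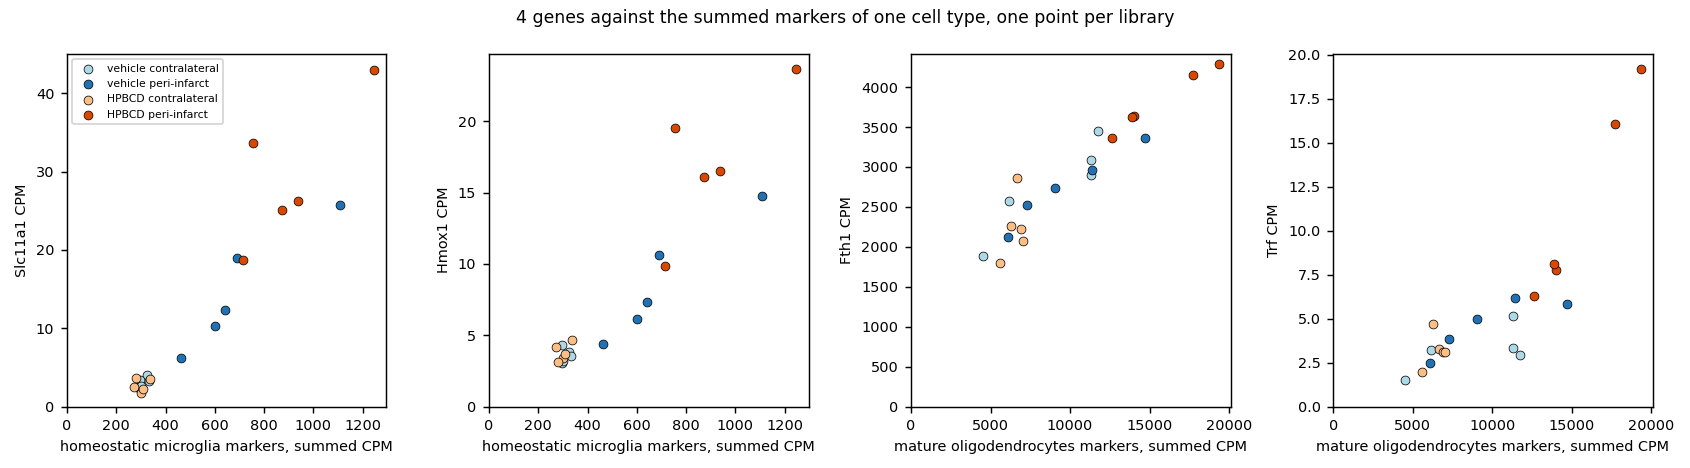
CPM of Slc11a1 and Hmox1 against summed homeostatic microglia markers, and of Fth1 and Trf against summed mature oligodendrocyte markers, with 1 point per library and linear axes from 0. Contralateral libraries cluster at microglia sums of 273 to 337, while oligodendrocyte sums spread from 4529 to 11759.5 within the vehicle contralateral group, and Fth1 spreads with them from 1885 to 3453 CPM.

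The genes varied together within groups to unequal degrees. Over the deviations of 20 libraries from their group means, Ftl1 and Hmox1 had an r of 0.890, Slc11a1 and Hmox1 0.871 and Slc11a1 and Ftl1 0.841, and Ftl1 and Cp 0.783. Trf and Fth1 formed another pair with r = 0.732. Tfrc ran against Ftl1 (r = -0.615) and Slc40a1 (r = -0.517). These are descriptions of libraries that share totals and, for the regions of one animal, their source.

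How far the treatment calls rest on single libraries was then examined. The count of 6 genes called between treatments in peri-infarct tissue was 1 without vehicle peri-infarct replicate 1, 2 without replicate 2 and 3 without replicate 4 of that group, and 1, 2 and 2 without HPBCD peri-infarct replicates 3, 4 and 5. The 4 genes called in the interaction became 0 on leaving out any of vehicle peri-infarct replicates 1 and 2, vehicle contralateral replicates 1 and 3, HPBCD peri-infarct replicates 3 and 4, or HPBCD contralateral replicates 2 and 4. The count was 1 without vehicle peri-infarct replicate 5, vehicle contralateral replicate 2 or HPBCD contralateral replicate 5, 2 without vehicle contralateral replicate 5 or HPBCD contralateral replicate 1, and 7 without HPBCD peri-infarct replicate 2. The sizes kept their sign. The interaction of Cp stayed at 1.21 to 1.70 over 27 alternatives, that of Fth1 at 0.69 to 0.96, that of Ftl1 at 0.73 to 0.99 and that of Cybrd1 at 0.89 to 1.22. Over all genes the count between treatments in peri-infarct tissue also depended on single libraries, at 3471 with all of them and 823 without HPBCD peri-infarct replicate 3. Each fit without a library has fewer samples than the full one.

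**Figure D5:**
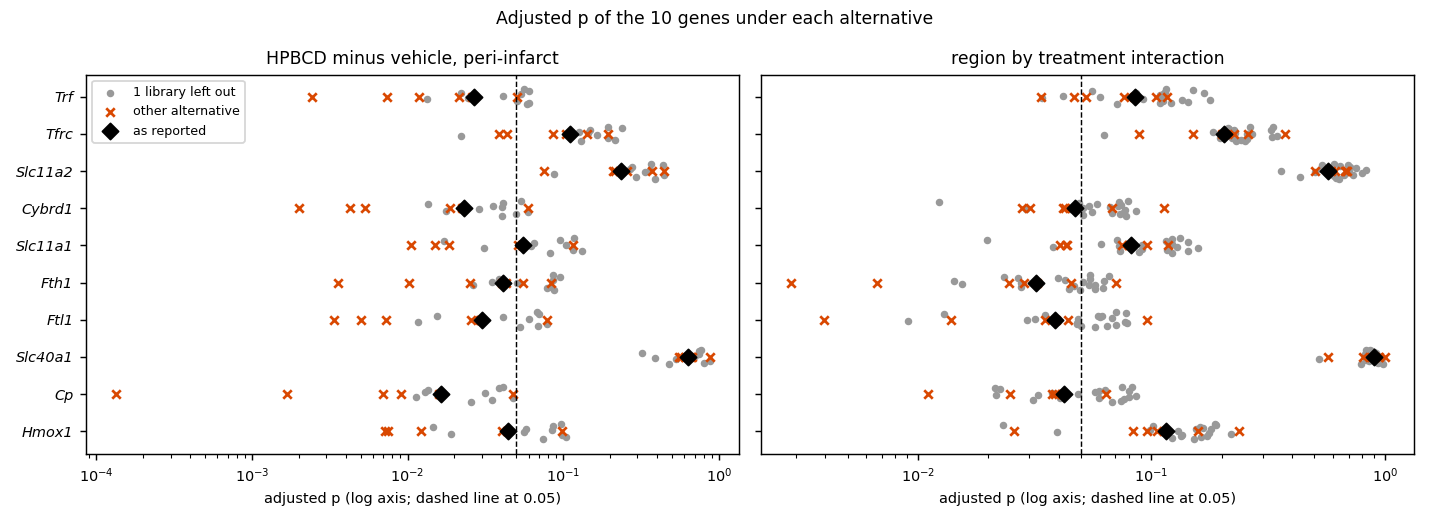
Adjusted p (log axis, dashed line at 0.05) of the 10 genes between treatments in peri-infarct tissue and in the interaction, as reported (diamond), with 1 library left out (dots) and under other alternatives (crosses). For the treatment difference Cp stays at or under 0.0475, and the dots of Fth1, Ftl1, Hmox1 and Trf fall on both sides of the line.

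Another 64 genes of iron and heme biology, listed by role, give the setting of the 10. In vehicle mice 55 were tested between regions, with 11 called higher and 4 lower, beside 10.5% and 9.70% of all genes, and a median log2 fold change of 0.052. In HPBCD mice it was 25 higher and 7 lower of 57, beside 30.3% and 24.3%, with a median of 0.237. Between treatments in peri-infarct tissue 10 of 55 were called higher and none lower by edgeR beside 12.4% and 9.00% of all genes. The interaction was called positive for 5 of 60, beside 5.03% of all genes. Without both libraries of HPBCD animal 3 these counts were 4 and 2, and over all genes 823 in place of 3471 and 480 in place of 1577. In contralateral tissue edgeR called none of 52, with 3 at an unadjusted p under 0.05, beside 1224 of 15469 genes, and DESeq2 and limma voom called none either. Hamp and Hamp2, which encode the hormone hepcidin, the mitochondrial ferritin Ftmt and Hephl1 had at most 1, 5, 0 and 1 counts in any library and were too low to be tested, with Hamp2 counted in all 5 HPBCD contralateral libraries.

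Among uptake genes, Lcn2, a protein that binds bacterial iron carriers, read 0.306 ± 0.342 CPM in vehicle contralateral, 22.9 ± 25.9 in vehicle peri-infarct, 0.548 ± 0.256 in HPBCD contralateral and 35.7 ± 26.5 in HPBCD peri-infarct libraries (SD, 5 libraries per group). Its regional log2 fold change was 6.24 ± 1.18 (SE, adjusted p = 0.00564 by edgeR) in vehicle, not called by limma voom (adjusted p = 0.0867), and 6.06 ± 0.67 (SE, adjusted p = 1.03e-05 by edgeR) in HPBCD. The vehicle peri-infarct libraries spread widely, from 1.44 to 52.3 CPM. Lrp2, the endocytic receptor megalin, read 0.424 to 1.82 CPM in vehicle and 2.65 to 5.67 CPM in HPBCD peri-infarct libraries, with a treatment difference of 1.65 ± 0.35 (SE, adjusted p = 0.0153 by edgeR). It had no count in any HPBCD contralateral library, so against 3 counts over that group it was at least 112-fold higher in HPBCD peri-infarct tissue, and its fitted regional and interaction values depend on the prior count. Of the uptake genes outside the 10, 3 of 8 were called higher between regions in vehicle, beside 10.5% of all genes, and 5 of 8 in HPBCD, beside 30.3%.

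Of the ferric reductases, Steap4 read 0.592 ± 0.245 CPM in vehicle contralateral, 4.75 ± 5.24 in vehicle peri-infarct, 0.57 ± 0.315 in HPBCD contralateral and 12 ± 8.49 in HPBCD peri-infarct libraries (SD, 5 libraries per group), with a regional log2 fold change of 2.97 ± 0.78 (SE, adjusted p = 0.0216 by edgeR) in vehicle and 4.32 ± 0.53 (SE, adjusted p = 2.16e-05 by edgeR) in HPBCD. In vehicle it was not called by limma voom (adjusted p = 0.0921), nor without vehicle peri-infarct replicate 4 (2.18, adjusted p = 0.0569) or vehicle contralateral replicate 3 or 5. Steap3, the endosomal reductase that works with the transferrin receptor, read 5.0 ± 0.66 CPM in vehicle contralateral, 9.88 ± 4.8 in vehicle peri-infarct, 5.68 ± 0.39 in HPBCD contralateral and 28.7 ± 10.2 in HPBCD peri-infarct libraries (SD, 5 libraries per group). It was higher in HPBCD in peri-infarct tissue by 1.53 ± 0.34 (SE, adjusted p = 0.0166 by edgeR) on the log2 scale, with an interaction of 1.36 ± 0.39 (SE, adjusted p = 0.0352 by edgeR). The interaction call of Steap3 was lost on leaving out any of 11 of the 20 libraries (adjusted p 0.0519 to 0.0708 by edgeR), or both libraries of HPBCD animal 3 (edgeR adjusted p = 0.0818). Steap2 was lower beside the infarct in vehicle mice, at -0.47 ± 0.10 (SE, adjusted p = 0.00856 by edgeR), and was not called in HPBCD mice, at -0.09 ± 0.16 (SE, adjusted p = 0.67 by edgeR), where 2 of 5 animals were higher on the peri-infarct side.

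Of 5 genes of hepcidin regulation tested between regions in vehicle, 2 were called higher and 1 lower, beside 10.5% and 9.70% of all genes. In HPBCD 3 of 4 tested were called higher and 1 lower, beside 30.3% and 24.3%. Bmp6, the ligand that signals iron load, read 9.87 ± 4.0 CPM in vehicle contralateral, 25.1 ± 10.3 in vehicle peri-infarct, 7.37 ± 5.2 in HPBCD contralateral and 72.1 ± 23.5 in HPBCD peri-infarct libraries (SD, 5 libraries per group). As log2, peri-infarct minus contralateral was 1.34 ± 0.34 (SE, adjusted p = 0.0191 by edgeR) in vehicle and 3.30 ± 0.38 (SE, adjusted p = 1.35e-05 by edgeR) in HPBCD, the treatment difference in peri-infarct tissue 1.51 ± 0.31 (SE, adjusted p = 0.0144 by edgeR) and the interaction 1.96 ± 0.54 (SE, adjusted p = 0.0317 by edgeR). Leaving out any of 9 of the 20 libraries ended the interaction call of Bmp6 (adjusted p 0.0503 to 0.0639 by edgeR). Hfe was higher beside the infarct by a log2 of 1.15 ± 0.29 (SE, adjusted p = 0.0187 by edgeR) in vehicle and 2.32 ± 0.21 (SE, adjusted p = 2.05e-06 by edgeR) in HPBCD mice. With the replicate block the vehicle value was 1.09 (edgeR adjusted p = 0.0534). Without vehicle peri-infarct replicate 4 it was 1.02 (edgeR adjusted p = 0.0506), in both cases of similar size but not called. Hfe2, hemojuvelin, fell, at -1.86 ± 0.52 (SE, adjusted p = 0.0277 by edgeR) in vehicle and -2.59 ± 0.65 (SE, adjusted p = 0.00444 by edgeR) in HPBCD, from contralateral levels of 1.66 ± 0.589 and 1.92 ± 0.701 CPM. The vehicle call of Hfe2 was lost without vehicle peri-infarct replicate 4 or 5 or vehicle contralateral replicate 2 or 3 (adjusted p 0.0614 to 0.072 by edgeR).

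Nfe2l2, the transcription factor that drives Hmox1 and ferritin genes under oxidative stress, read 15.3 ± 2.08 CPM in vehicle contralateral, 32.6 ± 11 in vehicle peri-infarct, 16.5 ± 2.22 in HPBCD contralateral and 72.1 ± 22.6 in HPBCD peri-infarct libraries (SD, 5 libraries per group). Its regional log2 fold change was 1.08 ± 0.21 (SE, adjusted p = 0.00685 by edgeR) in vehicle and 2.12 ± 0.19 (SE, adjusted p = 2.13e-06 by edgeR) in HPBCD, its treatment difference in peri-infarct tissue 1.14 ± 0.26 (SE, adjusted p = 0.0181 by edgeR) and its interaction 1.03 ± 0.31 (SE, adjusted p = 0.0406 by edgeR), which was no longer called with the replicate block (edgeR adjusted p = 0.0537). Leaving out any of 12 of the 20 libraries (adjusted p 0.0554 to 0.0817 by edgeR) or HPBCD animal 3 (edgeR adjusted p = 0.0718) also ended the interaction call of Nfe2l2. Its treatment difference was not called without HPBCD peri-infarct replicate 3 (edgeR adjusted p = 0.0504). The core of its binding site, TGACNNNGC on either strand, was in none of 9 RefSeq promoter windows (250 bases before to 50 after the start, GRCm38 table) of Fth1, Ftl1, Tfrc, Slc11a1, Cp and Cybrd1, and in 12.4% of all 32851 windows. Hmox1, Trf, Slc40a1 and Slc11a2 were not searched. That no match was found says only that these letters are not in these windows.

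The remaining roles held calls in both directions. Between regions in HPBCD mice, where 30.3% of all genes were called higher and 24.3% lower, 3 of 4 genes that scavenge hemoglobin or heme were called higher, as were 3 of 5 heme transporters (1 lower). In vehicle mice, beside 10.5% and 9.70% of all genes, 1 of 3 scavenging genes and 0 of 5 heme transporters were called by edgeR. Of 8 genes of mitochondrial iron, 1 was called higher and 2 lower in HPBCD and none in vehicle by edgeR, and of 3 iron sensors 1 was called higher in HPBCD. Blvra, a biliverdin reductase, was at -0.29 ± 0.09 (SE, adjusted p = 0.0482 by edgeR) in vehicle and -0.39 ± 0.13 (SE, adjusted p = 0.0234 by edgeR) in HPBCD between regions, and its vehicle call was lost in 10 alternatives and its HPBCD call without HPBCD peri-infarct replicate 1 (edgeR adjusted p = 0.0569). Urod of heme synthesis was lower in both treatments, at -0.37 ± 0.09 (SE, adjusted p = 0.0122 by edgeR) in vehicle and -0.37 ± 0.10 (SE, adjusted p = 0.00608 by edgeR) in HPBCD. Alad, which also serves heme synthesis, was at -0.20 ± 0.10 (SE, adjusted p = 0.17 by edgeR) in vehicle and was lower in HPBCD, at -0.42 ± 0.14 (SE, adjusted p = 0.0212 by edgeR), without a call by limma voom (adjusted p = 0.0655) or without HPBCD contralateral replicate 5 (edgeR adjusted p = 0.0504). The 10 genes of this wider list called between treatments in peri-infarct tissue were Bmp6, Hfe, Lrp2, Steap2, Steap3, Nfe2l2, Bach1, Blvrb and the heme exporters Flvcr1 and Abcg2, listed here in full after their values were seen. Their log2 fold changes ran from 0.53 in Abcg2 to 1.65 in Lrp2.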

How the data were processed

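RNA of 20 mouse brain libraries (4 groups of 5) was sequenced by the authors as 75-base read pairs from a stranded poly(A) library kit, and per the submitters' processing notes and the study's methods the reads were demultiplexed (bcl2fastq 2.19), trimmed (Trimmomatic 0.32), aligned to GRCm38 (STAR 2.5.2b) and counted with htseq-count. The annotation release and strand option are not given in the sources used here. The authors deposited whole-number counts per gene, with no normalization. Read pairs outside genes made up 4.39 to 9.50% of each library, ambiguous pairs 3.94 to 8.03% and pairs with several alignments 16.6 to 24.3%, and these lines stayed out of library sizes and tests. No count tables were identical. Symbols came from GENCODE M21, which matched 97.97% of 46078 genes and 99.933% of counts.

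Counts were tested with the edgeR quasi-likelihood F test (edgeR 4.0.16, R 4.3.3) with TMM factors and the default expression filter, fitted on the groups compared and adjusted by Benjamini-Hochberg over all genes. The interaction used all 4 groups. Alternatives were DESeq2 1.42.0, limma voom (limma 3.58.1), RLE factors, no filter, at least 10 counts in every library, all groups in 1 fit, the animal as a block, and each library left out. The procedure was tested on simulated data. CPM used TMM factors over 20 libraries, and log2 CPM a prior count of 2. Levels per kb used exon bases not shared with another listed gene. Each replicate is 1 animal, sampled in both regions, so equal replicate numbers within a treatment mark the same animal. The check of that pairing gave a mean correlation of deviations of 0.088 over 10 pairs, with 4 above 0.1. Main fits carry no block, since the study's methods name DESeq2 but no block, and numbers do not pair animals between treatments. The floor of 3 counts covers counting error only. The 10 genes, the wider iron list and the marker lists were chosen with earlier results of these data known. From the wider list, the 4 called genes with the most positive and the 4 with the most negative log2 fold change in each comparison with a mean of at least 1 CPM were named, and for each of the 10 genes the 2 genes most like it. A gene that this rule selects is not reported here. Genes that 1 sentence names in full outside this rule are marked there.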

Additional observations from a re-analysis of the deposited data

Results flagged for a closer look

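Of 40 sets of 5 libraries (10 genes in 4 groups), 2 held a library far from the others, where chance gives about 1 in 20. Slc40a1 in vehicle peri-infarct replicate 3 was at 13.5 CPM, a gap to its neighbour of 0.800 of the group's range on the log2 CPM scale, and Cp in vehicle contralateral replicate 2 was at 22.4 CPM, a gap of 0.774 on the same scale, with a limit of 0.71 for 5 libraries.

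The difference between regions itself differed between treatments in the interaction term of edgeR for Cybrd1 (log2 1.03), Fth1 (0.78), Ftl1 (0.83) and Cp (1.42). Of the 5 genes of the wider list called in this term, those that the naming rule picks were Bmp6 (1.96), Nfe2l2 (1.03), Steap3 (1.36) and Lrp2 (6.45, a fitted value set by the prior count because HPBCD contralateral libraries had no Lrp2 count). Adjusted p-values over all genes lay from 0.0202 in Lrp2 to 0.047 in Cybrd1.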

How the results depend on the processing

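The count of the 10 genes called was 4 to 6 between regions in vehicle and 8 to 9 in HPBCD when single libraries were left out, 1 to 8 between treatments in peri-infarct tissue, 0 to 7 in the interaction and 0 in contralateral tissue, with reported counts of 6, 8, 6, 4 and 0. Over all genes the same fits called 2000 to 3920, 8043 to 9382, 823 to 5339, 529 to 3121 and 0. Each leaves fewer samples. Without both libraries of HPBCD animal 3, chosen after seeing the data, 1 gene was called between treatments in peri-infarct tissue and 0 in the interaction, and over all genes 823 and 480. limma voom called 7 genes in the interaction, and the cause was not tested. Over all genes limma voom called 5065 against 3195 in the vehicle regional comparison, 6012 against 3471 between treatments in peri-infarct tissue and 4110 against 1577 in the interaction, where DESeq2 called 2514.

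With the animal as a replicate block, 5 genes were called between regions in vehicle, 8 in HPBCD and 5 in the interaction, and 3053, 8860 and 1830 over all genes. Of the 10 genes, Cp in vehicle lost its call and Slc11a1 in the interaction gained one, and the block changed no other call of these 10.

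Sign changes were limited to differences that were not called. With single libraries left out, Fth1 between regions in vehicle ran from -0.148 to 0.0702, Slc40a1 between regions in HPBCD from -0.136 to 0.159, between treatments in peri-infarct tissue from -0.0473 to 0.282 and in the interaction from -0.246 to 0.0695. In contralateral tissue Trf ran from -0.196 to 0.219, Tfrc from -0.0831 to 0.0279, Slc11a2 from -0.069 to 0.019, Cp from -0.0837 to 0.319 and Hmox1 from -0.00621 to 0.146. Slc40a1 between regions in HPBCD was -0.0571 with limma voom and -0.0115 with no filter. Without HPBCD animal 3 it was -0.109, and the treatment difference of Slc40a1 in peri-infarct tissue was -0.0473. The same fit gave contralateral differences of 0.00186 for Slc11a2 and -0.0837 for Cp. RLE factors and the minimum of 10 counts changed no call of the 10 genes. Cybrd1 had 12 to 30 counts in contralateral libraries and Trf 28 to 347 in all, which limits the precision of both.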

Other observations

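The ferritin light chain copy Ftl1-ps1 read 0.874 ± 0.385 CPM in vehicle contralateral, 1.45 ± 0.729 in vehicle peri-infarct, 0.855 ± 0.211 in HPBCD contralateral and 4.45 ± 3.25 in HPBCD peri-infarct libraries (SD over 5 libraries), so its mean was highest in the group where the mean of Ftl1 was highest. Ftl2-ps had its highest mean in the same group, at 20.6 ± 4.88 CPM, against 11.9 ± 5.97 in vehicle peri-infarct and 5.17 ± 1.41 in HPBCD contralateral libraries. Reads that fit Ftl1 and a copy equally well cannot be told apart.

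Cybrd1 as a share of summed astrocyte markers was 0.0305 ± 0.00697% in vehicle contralateral, 0.126 ± 0.0199% in vehicle peri-infarct, 0.0254 ± 0.00578% in HPBCD contralateral and 0.179 ± 0.0129% in HPBCD peri-infarct libraries (SD), and the shares of the HPBCD peri-infarct libraries were above those of every other library. Cp as a share of the same markers was 0.369 ± 0.0956%, 0.495 ± 0.188%, 0.382 ± 0.113% and 1.14 ± 0.426% in the same order, again highest and separate in HPBCD peri-infarct tissue. Within groups Cp had an r of 0.77 with fibroblast and meninges markers, against 0.54 with astrocyte markers. The former had a mean sum of 205 CPM in vehicle and 819 in HPBCD peri-infarct libraries, beside 32 and 93.2 CPM of Cp. Cp was not scaled to them.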
